A study of Saccharomyces cerevisiae with 48 samples.

Results

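The genes described here encode the enzymes and helper proteins that make glucan and chitin, the 2 structural polysaccharides of the budding yeast cell wall, and remodel them once they are in the wall. They are 33 of the 5449 S. cerevisiae genes measured, chosen by name for their function, with earlier results of these data known. Each was read from its 1 probe set on single-colour Affymetrix arrays, with 1 array per sample. Small newborn daughters were collected by elutriation from YEPD (rich medium) cultures kept at 25 °C and were moved to YEPD at 37 °C at time 0 min. The cdc28-4 strain (BF264-15DU background, mat a, cdc28-4) carries a temperature-sensitive allele of CDC28, the gene of the cell cycle kinase Cdk1, and its samples are labelled as lacking Cdk activity. It was followed in 2 replicate courses sampled every 20 min, course 1 with 15 arrays from 10 to 290 min and course 2 with 18 arrays from 10 to 350 min. The wild-type strain (BF264-15DU background, mat a, bar1) has Cdk activity and was followed in 1 course of 15 arrays from 15 to 225 min, so no wild-type time has a replicate. Both strains met the change of temperature, and no course without it is included.

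The yeast wall is built around β-1,3-glucan, which a plasma membrane synthase spins out into the wall and which wall enzymes then elongate, branch, trim and join to other polymers. β-1,6-glucan, whose assembly needs proteins along the secretory pathway, links mannoproteins to this layer. Chitin is made from UDP-N-acetylglucosamine and is laid down chiefly at the bud neck and the septum, with a smaller amount in the side walls.

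Values are log2 intensities, and a difference of 1 on this scale is a fold of 2. They come from bulk RNA, so fewer cells with a transcript and less transcript per cell cannot be told apart. Precision is set by how few arrays each group has. Groups of 4 cdc28-4 arrays hold 2 times from each of 2 courses. The main tests have no term for course and treat these arrays as independent. Deviations within a course were correlated between times (median r of 0.47), so the main p-values rest on an independence that the arrays lack. Each SE is the standard error of a difference as limma estimated it. The words "rose", "fell", "higher" and "lower" are kept for genes whose p, adjusted over all 5449 genes, was under 0.05. Arrays had median intensities of 394 to 473. Background was read from fission yeast probe sets on the same arrays, and 90.8% to 96.6% of genes exceeded it. Of the 33 genes, 31 were above that background on all 48 arrays. The exceptions were CRR1, under background on both cdc28-4 arrays at 10 min and on 9 of 15 wild-type arrays, and KNH1, under it on 1 array. CCW12 lay from 0.17 to 0.40 below the brightest probe set of each array, near the top of the scale. The ratio of 3′ to 5′ probe sets of 7 control genes, a sign of RNA integrity and labelling, was 0.67 to 0.93 in course 1, 0.52 to 0.80 in course 2 and 1.13 to 1.42 in wild type (log2). Read in listing order, the labels give the wild-type samples another labelling kit than the cdc28-4 samples, so strain, culture and kit cannot be told apart in any comparison of levels. The course 2 array at 170 min stood apart from its neighbours in time. Its level enters the tests over the whole course, the comparisons of the 2 courses and the counts of highest values. It is on neither side of the contrasts between chosen times. The fit of all 48 arrays takes its spread from the cdc28-4 pairs, so the 170 min pair enters every SE from that fit. The pair SD over all genes was 0.223 at 170 min, against 0.0855 to 0.135 at the other shared times. The contrasts between times and strains were not rerun without this pair. Both strains are labelled mat a, and the a-specific genes MFA1, MFA2, STE2, STE6 and AGA2 were above background on every array. BAR1, an a-specific gene that is mutated in wild type, was above it on all 33 cdc28-4 arrays and on 0 of 15 in wild type. Of the α-specific genes, SAG1 was above background on every array of both strains. MF(ALPHA)2 was above it on 15 of 15 and 18 of 18 arrays of the cdc28-4 courses and 0 of 15 in wild type, STE3 on 14 of 15 and 17 of 18 against 3 of 15, and MF(ALPHA)1 on 11 of 15 and 13 of 18 against 0 of 15.

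**Figure D1:**
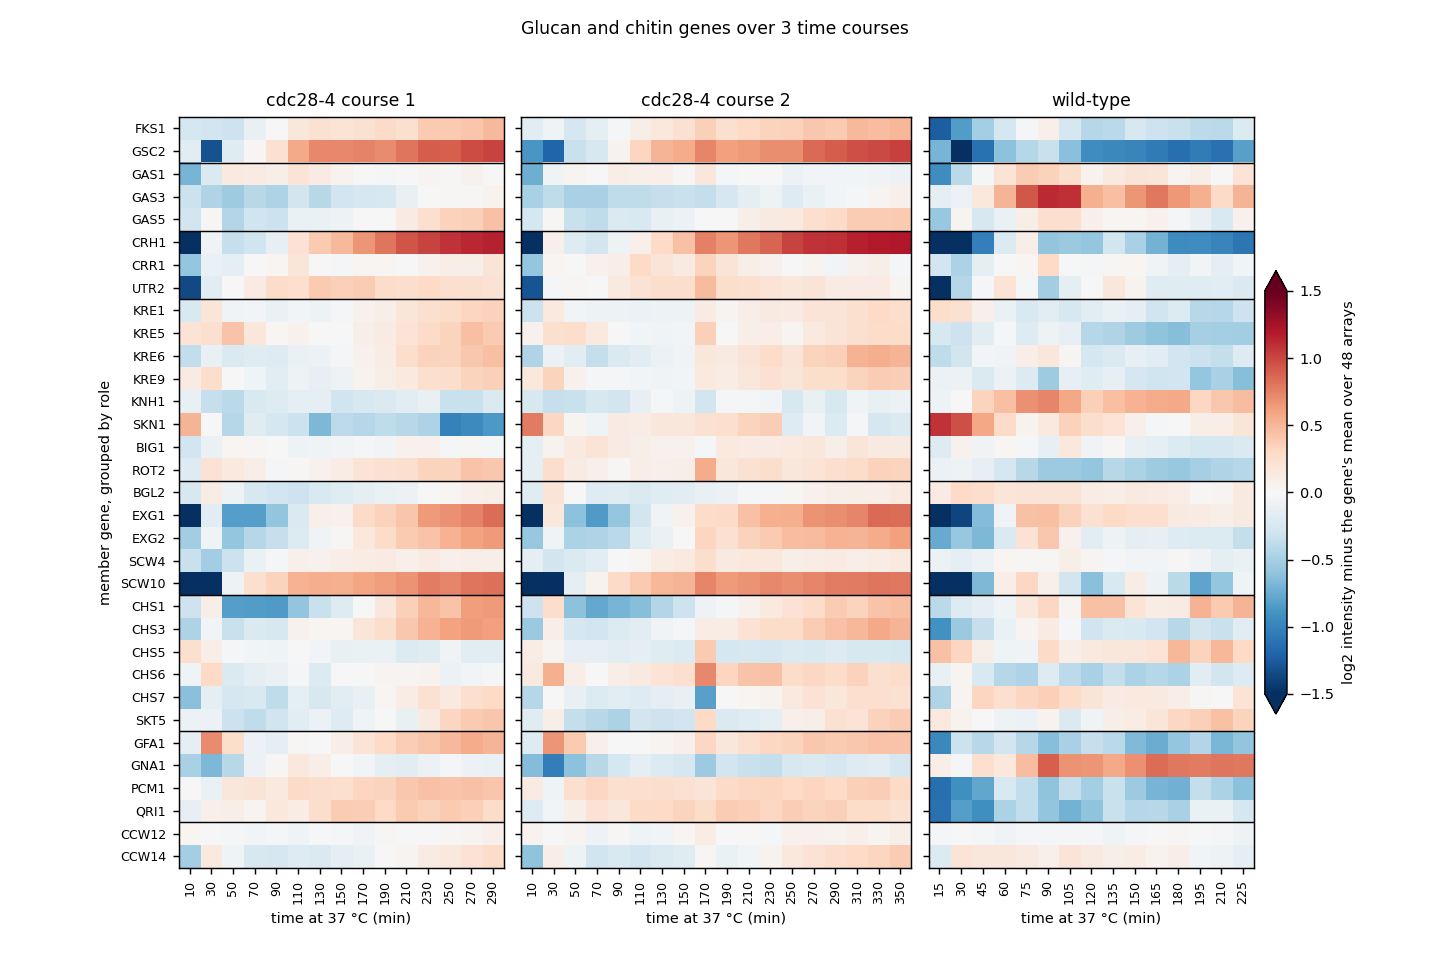
Log2 intensity of the 33 genes, minus each gene's mean over the 48 arrays, by time at 37 °C in the 3 courses. Rows are grouped by role, in the order synthase, elongation, crosslinking, β-1,6-glucan, glucanases, chitin synthesis, UDP-N-acetylglucosamine supply and mannoproteins. Colours stop at 1.5 on either side. Many rows are reddest at the end of the cdc28-4 courses, while many wild-type rows are highest near the middle of the course.

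Over the 15 times that both cdc28-4 courses share, 27 of the 33 genes changed with time (limma F test), as did 84.5% of all genes. CRH1 (YGR189C), which encodes a transglycosylase that joins chitin to glucan, had the highest F of 243. It was followed by the glucanase-like wall protein gene SCW10 (YMR305C) at 134, the major exo-1,3-glucanase gene EXG1 (YLR300W) at 131 and its relative EXG2 (YDR261C) at 80.3. KRE5, KNH1, SKN1, BIG1, CHS6 and CCW12 were not past the threshold. The courses form pairs by replicate number, and with course as a block SKN1 (adjusted p = 4.9e-05), BIG1 (0.000523), CHS6 (0.0015), KRE5 (0.00775) and KNH1 (0.0192) passed as well, and KRE5 also passed without the 170 min arrays (0.03). Over the 15 times Pearson's r between the 2 courses ranged over the genes from 0.37 to 0.99 with a median of 0.92, against a median of 0.87 over all genes, as a description over times of 2 cultures. From 50 min on, without the large early differences, the median was 0.88, against 0.69 over all genes, and the lowest values were 0.05 for CRR1, 0.18 for CHS5 and 0.32 for GAS1. The 170 min arrays are part of these r values, and there CHS5 had 11.27 in course 2 and 10.77 in course 1. SKN1 and CHS6 were offset, on average 0.58 and 0.31 higher in course 2.

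Many of these genes were highest at the end of the cdc28-4 courses. From 50 min on, 22 of 33 had their highest value in the last 3 of 13 arrays of course 1 (250 to 290 min), as did 32.7% of all genes. In course 2, 19 of 33 had it in the last 3 of 16 arrays (310 to 350 min), against 22.4% of all genes. In that course GAS1, CRR1, UTR2, KRE5, ROT2, SCW4, CHS5, CHS6 and CCW12 had it on the 170 min array, which stood apart. In the wild-type course, from 45 min on, 23 of 33 had their highest value at 60 to 105 min, against 38.9% of all genes. These counts describe single courses and carry no test.

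Setting 30 min against 10 min within cdc28-4, with 2 arrays at each time, covers the first interval after the transfer, in which time since elutriation and the change of temperature cannot be told apart. The largest differences were those of the crosslinking enzyme genes CRH1 and UTR2, the exoglucanase gene EXG1 and GFA1, the gene of the first enzyme of UDP-N-acetylglucosamine synthesis. In all, 18 genes rose, 2 fell and 13 did not pass, where 55.9% of all genes were called (31.4% higher, 24.5% lower). The median difference was 0.29, against 0.04 over all genes. With quantile normalization 16 genes were higher and 4 lower (1550 and 1471 over all genes), and the median difference was 0.23. That setting ended 2 calls, KRE9 (0.08, adjusted p = 0.271) among them, and added 2, with KNH1 (-0.33) among the new falls. With arrays centred on their median the split stayed at 18 higher and 2 lower.

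CRH1 had values of 12.75 and 12.87 at 30 min, against 10.67 and 10.66 at 10 min. EXG1 had 12.73 and 13.06 at 30 min, against 10.86 and 11.01 at 10 min. UTR2 (YEL040W), a second chitin-glucan transglycosylase gene, had 12.57 and 12.69 at 30 min, against 11.37 and 11.43 at 10 min. For each of these genes both later arrays were far above both earlier ones, and CRH1 rose 4.42-fold (log2 difference 2.15, SE 0.0763, adjusted p = 3.9e-14), EXG1 3.90-fold (1.96, SE 0.0916, adjusted p = 1.64e-12) and UTR2 2.35-fold (1.23, SE 0.0676, adjusted p = 1.71e-11). CRR1, the relative of these enzymes known for its part in the spore wall, had 8.56 and 8.68 at 30 min, against 8.07 and 8.08 at 10 min, where it was under background. It rose in the limma test on the values as measured (adjusted p = 0.000126). Computed against the background level it was at least 1.26-fold higher, a bound that was not itself tested. GFA1 (YKL104C), the amidotransferase gene of the first committed step to UDP-N-acetylglucosamine, had 12.90 and 12.85 at 30 min, against 12.04 and 12.00 at 10 min, without overlap (0.85, adjusted p = 3.98e-08). Of the later enzymes of that route only the pyrophosphorylase gene QRI1 rose, by 0.17, while the mutase gene PCM1 was at -0.14 and the acetyltransferase gene GNA1 at -0.29 without passing.

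The catalytic subunits of the β-1,3-glucan synthase gave different calls, and the difference between them was not tested. GSC2 (YGR032W, also FKS2), the subunit known for expression under stress and poor nutrition, had 11.25 and 11.35 at 30 min, against 12.38 and 11.68 at 10 min. Both later arrays were below both earlier ones, a fall of 0.73 (SE 0.159, adjusted p = 0.000636) that was 0.38 (adjusted p = 0.0315) without the course 1 array at 10 min. FKS1 (YLR342W), the main subunit of growing cells, had 13.29 and 13.52 at 30 min, against 13.32 and 13.42 at 10 min, overlapping values (0.03, adjusted p = 0.716). SCW10 had 10.47 and 11.03 at 30 min, against 11.46 and 11.55 at 10 min, and fell by 0.75 (adjusted p = 1.05e-05), or by 0.48 without the course 1 array at 30 min. Its close relative SCW4 (YGR279C) had 13.68 and 13.94, against 13.88 and 14.08, which overlap (-0.17, adjusted p = 0.0724).

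Of the elongation enzymes, GAS1, which lengthens β-1,3-glucan chains, rose by 0.58 and GAS5 by 0.29, while GAS3 was at -0.01. Among 8 genes of β-1,6-glucan assembly, 4 rose: the surface glycoprotein gene KRE1 by 0.44, the glucosidase II gene ROT2 by 0.41, KRE6 by 0.31 and KRE9 by 0.15. KRE6 and its relative SKN1 encode membrane proteins of the secretory pathway; KRE6 (YPR159W) had 12.58 and 12.60 at 30 min, against 12.32 and 12.24 at 10 min, and SKN1 (YGR143W) had 10.66 and 10.97, against 11.17 and 11.44. Neither gene overlapped between the times, but the courses of SKN1 lay far apart, so its difference of -0.49 had an adjusted p of 0.306, or 0.00789 with course as a block. KRE9 (YJL174W) and its relative KNH1 (YDL049C) encode secreted wall proteins; KRE9 had 12.73 and 12.80 at 30 min, against 12.60 and 12.63 at 10 min, and KNH1 had 8.50 and 8.50, against 8.73 and 8.60. EXG2 rose by 0.49, the endoglucanase and transglucosylase gene BGL2 by 0.37 and the mannoprotein gene CCW14 by 0.67. Among 6 chitin synthesis and transport genes 3 rose: CHS3 by 0.53, CHS1 by 0.49 and CHS7, which is needed for CHS3 protein to leave the endoplasmic reticulum, by 0.46. CHS3 (YBR023C), the synthase of most wall chitin, had 12.07 and 12.21 at 30 min, against 11.66 and 11.56 at 10 min. CHS1 (YNL192W), the repair synthase, had 11.13 and 11.31 at 30 min, against 10.73 and 10.73 at 10 min, and neither synthase overlapped between the times.

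With course as a block the same contrast called 25 genes, 20 higher and 5 lower, and over all genes 1953 higher and 1546 lower. CHS6 (0.38, adjusted p = 0.0015), BIG1 (0.20, 0.00172), GNA1 (-0.29, 0.00216), SKN1 and SCW4 (0.0301) joined. Calls of 4 genes hung on single arrays. KRE9 had adjusted p from 0.0587 to 0.157 (0.12 to 0.17) without the course 2 array at 30 min or either 10 min array, QRI1 0.181 and 0.249 (0.14 and 0.11) without the course 2 array at 10 min or the course 1 array at 30 min, CHS7 0.0747 and 0.0955 (0.39 and 0.36) without the course 2 array at 30 min or the course 1 array at 10 min, and CHS1 0.0555 (0.40) without the course 2 array at 30 min. Without either of the arrays that CHS7 needed, SCW4 passed (-0.29, 0.00483, and -0.27, 0.0176).

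The second comparison set 90 and 110 min (4 arrays) against the same 10 min arrays (2 arrays). Wall remodelling enzymes led again, now with SCW10 among them, and the chitin synthase genes parted. In all, 20 genes were higher, 3 lower and 10 not past, where 74.2% of all genes were called (42.9% higher, 31.3% lower), with a median of 0.24, against 0.09 over all genes. With arrays centred on their median, 16 genes were higher and 7 lower (2053 and 1942 over all genes). BIG1 (0.18, adjusted p = 0.0674), ROT2 (0.12, 0.149), CHS7 (0.24, 0.0935) and PCM1 (0.09, 0.174) no longer passed, and BGL2 (-0.12, 0.038), SKT5 (-0.25, 0.043), SKN1 (-0.81, 0.0421) and CCW12 (-0.15, 0.00685) did. With quantile normalization BIG1 (0.17, 0.0789) and ROT2 (0.16, 0.0622) did not pass, and SKN1 (-0.78, 0.0482) and SKT5 (-0.24, 0.0458) did. Genes driven by the stress factors Msn2 and Msn4 moved over the same interval: all 15 of a list fell, with a median of -1.91, and their part in the result was not tested.

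CRH1 had 12.67, 13.02, 12.73 and 12.87 at 90 and 110 min (course 1, then course 2), against 10.67 and 10.66 at 10 min, a difference of 2.16 (SE 0.0661, adjusted p = 5.07e-16). SCW10 had 13.39, 13.57, 13.34 and 13.45, against 11.46 and 11.55, a difference of 1.93 (SE 0.0961, adjusted p = 5.62e-13). EXG1 had 12.32, 12.70, 12.33 and 12.63, against 10.86 and 11.01, a difference of 1.56 (SE 0.0794, adjusted p = 8.16e-13). UTR2 had 13.01, 12.98, 12.88 and 12.95, against 11.37 and 11.43, a difference of 1.55 (SE 0.0585, adjusted p = 8.38e-15). In these 4 genes every later array was more than 1 above every earlier one. The path differed: CRH1, EXG1 and UTR2 were already high at 30 min, whereas SCW10 first fell and then stood at 12.98 and 12.92 at 50 min.

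GSC2 was now higher, with 12.78, 13.12, 12.60 and 12.87, against 12.38 and 11.68, without overlap (0.81, adjusted p = 2.52e-05, and 0.46, adjusted p = 0.00371, without the course 2 array at 10 min). FKS1 had 13.57, 13.75, 13.57 and 13.67, against 13.32 and 13.42, also without overlap (0.27, adjusted p = 0.000437). CRR1 had 8.68, 8.83, 8.76 and 8.95, against 8.07 and 8.08 under background, and was higher in the limma test on these values (adjusted p = 2.75e-07). Computed against the background level it was at least 1.44-fold higher, a bound that was not itself tested. CHS1 fell in this contrast, with 10.20, 10.46, 10.35 and 10.41, against 10.73 and 10.73, every later array below both earlier ones (-0.38, adjusted p = 0.00645). CHS3 had 11.88, 12.18, 11.91 and 11.95, against 11.66 and 11.56, every later array above both earlier ones (0.37, adjusted p = 0.00251). GFA1, with 12.04, 12.21, 12.19 and 12.19, against 12.04 and 12.00, was back near its first level (0.14, adjusted p = 0.0879, and 0.17, adjusted p = 0.0448, without the course 1 array at 90 min).

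GAS1 was higher by 0.83, and 4 of 8 β-1,6-glucan genes were higher, BIG1 by 0.26, KRE6 by 0.24, KRE1 by 0.20 and ROT2 by 0.19. KRE6 had 12.49, 12.59, 12.47 and 12.51, against 12.32 and 12.24, and KRE9 fell by 0.22 with 12.32, 12.39, 12.43 and 12.43, against 12.60 and 12.63, neither overlapping. SKN1 had 10.39, 10.34, 10.78 and 10.77, against 11.17 and 11.44, every later array below both earlier ones (-0.73, adjusted p = 0.058, but 3.52e-05 with course as a block). KNH1 had 8.64, 8.70, 8.56 and 8.72, against 8.73 and 8.60, which overlap. SCW4 had 14.18, 14.29, 14.21 and 14.24, against 13.88 and 14.08, without overlap (0.25), and EXG2 was higher by 0.26 and CCW14 by 0.31. GNA1 (0.51), QRI1 (0.34), CHS7 (0.32) and PCM1 (0.17) were higher, and CHS5, whose product carries CHS3 protein to the cell surface, was lower by 0.28. Without the course 1 array at 10 min BIG1 (0.18, adjusted p = 0.122), ROT2 (0.17, 0.164), SCW4 (0.15, 0.0987), CHS5 (-0.21, 0.143), CHS7 (0.22, 0.24) and PCM1 (0.11, 0.207) lost their call. Leaving out the 10 min array of course 2 ended the calls of KRE1 (0.16, 0.0659), ROT2 (0.22, 0.0662) and GNA1 (0.43, 0.0674). Leaving out a single array at 90 or 110 min also ended the call of ROT2 (0.0627 and 0.0797 without those of course 2), CHS7 (0.0839 without course 2 at 90 min, 0.0534 without course 1 at 110 min) and PCM1 (0.0574 without course 2 at 90 min), and SKN1 passed without course 2 at 110 min (-0.84, 0.0499).

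The third comparison, of 4 arrays from 270 and 290 min with 4 from 90 and 110 min, covers the long interval in cdc28-4 cells labelled as lacking Cdk activity. The rises included both β-1,3-glucan synthase genes, 5 of 8 β-1,6-glucan genes, 4 of 5 glucanase genes and the chitin synthase genes CHS1 and CHS3, but 1 of 3 crosslinking genes. In all, 23 genes rose, 1 fell and 9 did not pass, where 56.2% of all genes were called (27.2% higher, 29.1% lower). The median was 0.34, against -0.02 over all genes. It shares the 90 and 110 min arrays with the comparison before, where they are on the other side. The 3′ to 5′ ratio of the control genes averaged 0.79 late and 0.65 early, and its part in the result was not tested.

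CHS1 had 11.67, 11.68, 11.32 and 11.43 at 270 and 290 min, against 10.20, 10.46, 10.35 and 10.41 at 90 and 110 min. EXG1 had 13.65, 13.75, 13.58 and 13.60 late, against 12.32, 12.70, 12.33 and 12.63. CRH1 had 13.93, 13.95, 13.88 and 13.90 late, against 12.67, 13.02, 12.73 and 12.87. None of these overlapped, and the rises were 2.26-fold for CHS1 (1.17, SE 0.0951, adjusted p = 6.85e-09), 2.22-fold for EXG1 (1.15, SE 0.0648, adjusted p = 3.73e-11) and 2.14-fold for CRH1 (1.09, SE 0.0539, adjusted p = 4.78e-12). EXG2 had 11.82, 11.86, 11.69 and 11.74 late, against 10.87, 11.02, 10.81 and 11.03, without overlap (0.85, SE 0.0445, adjusted p = 1.34e-11). In both courses CHS1 thus went down after 30 min, was lowest at 70 or 90 min and then went up.

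CHS3 had 12.76, 12.73, 12.50 and 12.55 late, against 11.88, 12.18, 11.91 and 11.95 (0.66, adjusted p = 1.44e-06). SKT5, whose product activates CHS3 protein, rose by 0.59 and CHS7 by 0.45, while CHS5 (-0.09) and CHS6 (0.10), which act together in its transport, did not pass. Both synthase subunits of β-1,3-glucan rose. GSC2 had 13.53, 13.57, 13.41 and 13.47 late, against 12.78, 13.12, 12.60 and 12.87 (0.65, SE 0.112, adjusted p = 7.01e-05). FKS1 had 13.99, 14.06, 13.99 and 13.97 late, against 13.57, 13.75, 13.57 and 13.67 (0.37, SE 0.0479, adjusted p = 2.88e-06). In CHS3, GSC2 and FKS1 every late array was above every early one. GFA1 had 12.75, 12.71, 12.59 and 12.59 late, against 12.04, 12.21, 12.19 and 12.19, again without overlap (0.50, adjusted p = 5.18e-07), and QRI1 (0.15) and PCM1 (0.13) rose slightly, but not GNA1 (-0.10).

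GAS5 rose by 0.55 and GAS3 by 0.36, while GAS1 fell by 0.12. Of 8 β-1,6-glucan genes, 5 rose: KRE6 by 0.56, KRE9 by 0.38, KRE1 by 0.34, ROT2 by 0.29 and KRE5, an endoplasmic reticulum protein gene, by 0.28. KRE6 had 13.09, 13.14, 13.01 and 13.05 late, against 12.49, 12.59, 12.47 and 12.51, and KRE9 had 12.80, 12.82, 12.73 and 12.74, against 12.32, 12.39, 12.43 and 12.43, neither overlapping. Their relatives did not pass: SKN1 had 9.70, 9.79, 10.62 and 10.45, against 10.39, 10.34, 10.78 and 10.77 (-0.43, adjusted p = 0.199, and 0.00159 with course as a block), and KNH1 had 8.51, 8.62, 8.73 and 8.59, against 8.64, 8.70, 8.56 and 8.72 (-0.04). SKN1 was low chiefly in course 1, and the values of both genes overlapped between the times. Other relatives also gave different calls, and the differences between relatives were not tested. SCW10 had 13.86, 13.88, 13.79 and 13.83 late, against 13.39, 13.57, 13.34 and 13.45 (0.40, adjusted p = 0.000241), while SCW4 had 14.31, 14.30, 14.32 and 14.33, against 14.18, 14.29, 14.21 and 14.24, all late values just above the early ones (0.09, adjusted p = 0.186). The brightest probe set was at 14.83 to 14.89 on these arrays, so SCW4 was itself high on the scale. Unlike CRH1, UTR2 had overlapping values of 12.97, 12.94, 12.92 and 12.86 late, against 13.01, 12.98, 12.88 and 12.95 (-0.03), and CRR1 had 8.74, 8.85, 8.70 and 8.61, against 8.68, 8.83, 8.76 and 8.95 (-0.08). BGL2 rose by 0.33, CCW14 by 0.49 and CCW12, near the top of the scale, by 0.09.

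The small late changes hung on single arrays: CCW12 lost its call without any 1 of the 8 arrays (0.08 to 0.10, adjusted p from 0.0544 to 0.113), GAS1 without 6 of them (-0.09 to -0.13, 0.0582 to 0.165), PCM1 without 4 (0.11 to 0.13, 0.0712 to 0.117) and QRI1 without course 1 at 110 min (0.11, 0.074). GAS1 was also not past with quantile normalization (-0.10, 0.0768) or median centring (-0.10, 0.0567), nor CCW12 with quantile normalization (0.02, 0.559). Quantile normalization also added 2 late calls, both of them falls. The late split was then 22 higher and 2 lower, against 23 higher and 1 lower in the main test. With median centring it was 23 higher and 0 lower. In course 2 the last 3 arrays, at 310, 330 and 350 min, have no replicate. CRH1 was at 13.96, 13.99 and 14.00, EXG1 at 13.64, 13.76 and 13.74 and KRE6 at 13.21, 13.23 and 13.20 there, all above the 290 min array of that course. Not all genes were: CHS1 had 11.38, 11.47 and 11.49, against 11.43 at 290 min, and EXG2 had 11.72, 11.78 and 11.84, against 11.74. UTR2, at 12.86, 12.85 and 12.77, did not go above its 12.86 at 290 min.

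**Figure D2:**
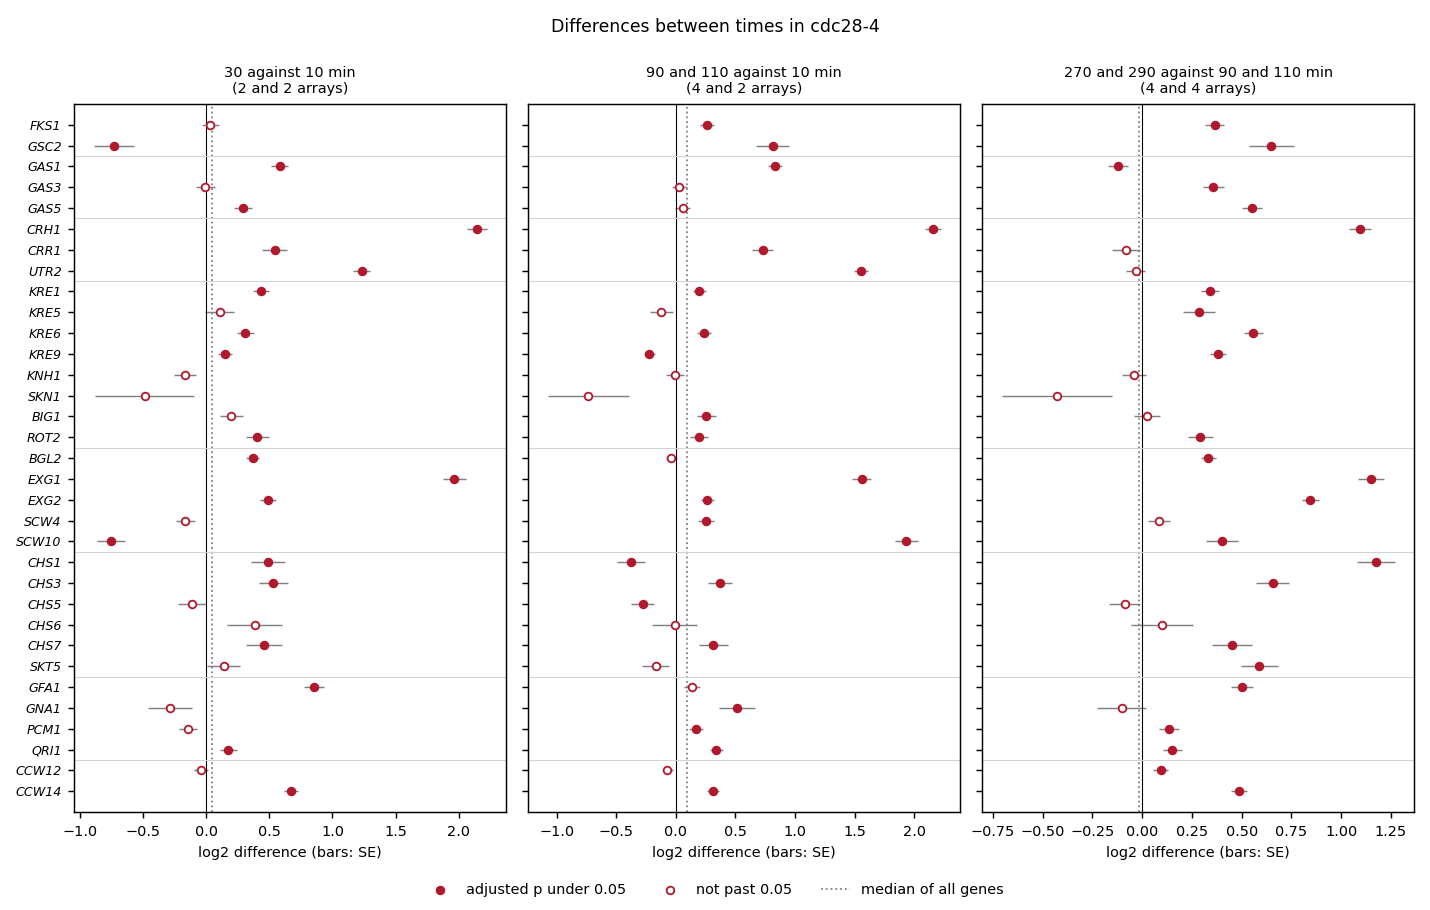
Log2 difference (later minus earlier) of each gene in the 3 time contrasts within cdc28-4, with its SE as a bar; filled points passed an adjusted p of 0.05 and the dotted line is the median of all genes. CRH1, EXG1 and UTR2 stand far to the right in the first and second panels (1.23 to 2.16), and in the third most points lie to the right of 0, with CHS1, EXG1 and CRH1 at 1.09 to 1.17.

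Differences between the strains were tested on the times they share, 30, 90, 150 and 210 min, taking the spread between paired cdc28-4 arrays as that of the unreplicated wild-type ones. Offsets that stay constant over time, whether of strain, culture or kit, cancel in these tests of change. The strain by time interaction passed for 21 of 33 genes, where 33.8% of all genes passed, with the highest F for EXG1 (80.1), EXG2 (66.4), CRH1 (47.6) and the elongation family gene GAS3 (38.2). With course as a block BIG1 (adjusted p = 0.00312), KRE5 (0.0218) and QRI1 (0.0416) passed as well.

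Between 30 and 90 min values went up in wild type in many of these genes, by more than in cdc28-4, where some went down. The change was higher in cdc28-4 for 1 gene, lower for 14 and not past for 18, where 19.3% of all genes were called (8.48% higher, 10.8% lower). The median difference was -0.29, against 0.02 over all genes. Of 44 reference genes of the cell cycle, none of them among the 33, the change was lower in cdc28-4 for 34 and higher for 0.

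EXG1 had 12.32 and 12.33 in cdc28-4 at 90 min and 12.73 and 13.06 at 30 min, and in wild type 13.36 at 90 min and 11.53 at 30 min. Its change was -0.58 in cdc28-4 and 1.83 in wild type, a difference of -2.40 (SE 0.159, adjusted p = 6.38e-09). CHS1 had 10.20 and 10.35 in cdc28-4 at 90 min and 11.13 and 11.31 at 30 min, and in wild type 11.35 at 90 min and 10.85 at 30 min. Both cdc28-4 courses went down and the wild-type course went up in each of these genes, and for CHS1 the changes of -0.95 in cdc28-4 and 0.51 in wild type differed by -1.45 (SE 0.233, adjusted p = 0.000211). EXG2 had 10.87 and 10.81 in cdc28-4 at 90 min and 11.15 and 11.17 at 30 min, and in wild type 11.63 at 90 min and 10.65 at 30 min (changes of -0.32 and 0.98, difference -1.29, adjusted p = 9.28e-08). CRH1 had 12.67 and 12.73 in cdc28-4 at 90 min and 12.75 and 12.87 at 30 min, and in wild type 12.20 at 90 min and 11.08 at 30 min (changes of -0.11 and 1.12, difference -1.23, adjusted p = 1.95e-06). At 30 min CRH1 and EXG1 were thus still low in wild type but already high in cdc28-4.

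GAS3 changed by -0.01 in cdc28-4 and 1.20 in wild type, CHS3 by -0.25 and 0.68, and FKS1 by 0.16 and 0.91. CHS3 had 11.88 and 11.91 in cdc28-4 at 90 min and 12.07 and 12.21 at 30 min, and in wild type 12.24 at 90 min and 11.56 at 30 min. FKS1 had 13.57 and 13.57 in cdc28-4 at 90 min and 13.29 and 13.52 at 30 min, and in wild type 13.65 at 90 min and 12.74 at 30 min. GSC2 went up by 1.39 in cdc28-4 and 1.31 in wild type (difference 0.08, SE 0.275, adjusted p = 0.894) and SCW10 by 2.61 and 2.65 (difference -0.04, SE 0.192, adjusted p = 0.929). KNH1 changed by 0.10 in cdc28-4 and 0.73 in wild type, KRE6 by -0.11 and 0.44, GAS1 by 0.23 and 0.76, and GAS5 by -0.29 and 0.21, all past the test. KRE9, SKN1 and SCW4 did not pass (0.05, 0.59 and 0.22). CRR1 passed (adjusted p = 0.00973), but its wild-type value at 30 min was under background, so no size is given. GFA1 changed by -0.76 in cdc28-4 (12.04 and 12.19 at 90 min, 12.90 and 12.85 at 30 min) and by -0.32 in wild type (11.55 at 90 min, 11.87 at 30 min).

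UTR2 was the 1 gene past the threshold with a larger change in cdc28-4, 0.31 (13.01 and 12.88 at 90 min, 12.57 and 12.69 at 30 min) and -0.09 in wild type (12.21 at 90 min, 12.30 at 30 min), a difference of 0.41 (adjusted p = 0.0192). The wild-type value at 90 min is a dip between 12.70 at 75 min and 12.58 at 105 min, and with wild type averaged over these 3 times, an alternative added after the data were seen, the difference was 0.12 (adjusted p = 0.464). Over the 33 genes the wild-type 90 min array deviated from the mean of its neighbours in time with an SD of 0.193, against 0.0636 to 0.151 for the other wild-type arrays from 45 to 210 min. The single wild-type array at 30 min, the other side of this change, had an SD of 0.273. Averaging replaced only the 90 min side. Under the averaged wild type UTR2 was the only 1 of the 15 calls lost, and CCW14 passed (-0.29, 0.0192). Leaving out course 1 at 30 min or at 90 min ended the call of UTR2 (0.34, 0.0569, and 0.34, 0.0719) and that of GFA1 (-0.42, 0.0673, and -0.36, 0.113), and BGL2 did not pass without course 2 at 30 min (-0.24, 0.0958) or course 1 at 90 min (-0.23, 0.129). With course as a block 18 genes passed, BIG1 (0.28, adjusted p = 0.0201), KRE5 (-0.47, 0.032) and CCW14 (-0.24, 0.047) among them. Over all genes the block called 735 higher and 836 lower, in place of 462 and 591.

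From 90 min to the mean of 150 and 210 min the pattern was the other way round: values of many of the genes went up in cdc28-4 and down in wild type. The change was higher in cdc28-4 for 12 genes, lower for 1 and not past for 20, where 16.5% of all genes were called (7.56% higher, 8.94% lower). With arrays centred on their median, 56.1% of the called genes were higher, against 45.8% with the deposited scaling, and 15 of the 33 genes were higher and 1 lower. Both intervals use the same 90 min arrays on opposite sides, so a high or low 90 min value pushes them apart. With course as a block 1541 genes in place of 899 were called over all genes and 17 of the 33, now with KRE1 (0.26, adjusted p = 0.0186), BGL2 (0.22, 0.0186), KNH1 (0.37, 0.0221) and CCW14 (0.23, 0.0313).

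GSC2 had 13.27 and 13.11 at 150 min and 13.36 and 13.19 at 210 min in cdc28-4, after 12.78 and 12.60 at 90 min, and in wild type 11.56 at 150 min and 11.43 at 210 min, after 12.22 at 90 min. It moved up in both cdc28-4 courses and down in wild type, by 0.54 and -0.72, a difference of 1.26 (SE 0.238, adjusted p = 0.00158). EXG2 changed by 0.57 in cdc28-4 and -0.58 in wild type (difference 1.14, SE 0.0944, adjusted p = 2.36e-07), with 11.24, 11.62, 11.21 and 11.56 at 150 and 210 min in cdc28-4, and 11.09 and 11.01 in wild type. EXG1 changed by 0.83 in cdc28-4 and -0.29 in wild type (difference 1.12, SE 0.137, adjusted p = 2.9e-05), with 12.98, 13.32, 12.98 and 13.35 in cdc28-4, and 13.16 and 13.00 in wild type. CRH1 changed by 0.76 in cdc28-4 and -0.14 in wild type (difference 0.90, SE 0.114, adjusted p = 3.54e-05), with 13.28, 13.74, 13.24 and 13.59 in cdc28-4, and 12.31 and 11.81 in wild type.

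FKS1 followed its relative GSC2, by 0.25 in cdc28-4 and -0.40 in wild type, KRE6 by 0.31 and -0.40, GAS3 by 0.20 and -0.64, GAS5 by 0.29 and -0.34, and CHS3 by 0.38 and -0.40. SCW10 changed by 0.29 in cdc28-4 and -0.31 in wild type, KRE5 by 0.05 and -0.46, and CHS1 by 0.75 in cdc28-4 with hardly any change in wild type (-0.01). UTR2 was the exception, at 0.07 in cdc28-4 and 0.47 in wild type, which again rests on its wild-type dip at 90 min (difference -0.11, adjusted p = 0.36, with wild type averaged over 75, 90 and 105 min). SKN1, KRE9, KNH1, SCW4 and GFA1 did not pass in this interval (0.06, -0.02, 0.37, 0.25 and 0.30), nor did CRR1, whose wild-type value at 210 min was under background. Without the course 1 array at 90 min the calls of UTR2 (-0.34, 0.0587), CHS1 (0.68, 0.063) and KRE5 (0.52, 0.0966) were lost, and KRE5 also lost it without 4 other arrays (0.48 to 0.52, 0.058 to 0.092). BGL2 passed without course 2 at 90 min (0.28, 0.041), and KNH1 without course 1 at 150 min (0.42, 0.031) or 210 min (0.40, 0.0462). With wild type averaged over 75, 90 and 105 min UTR2 was the only call lost, and GFA1 (0.43, 0.00532), KRE9 (0.23, 0.0228), KNH1 (0.30, 0.0477), BGL2 (0.22, 0.0215) and CCW14 (0.28, 0.00784) passed.

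**Figure D3:**
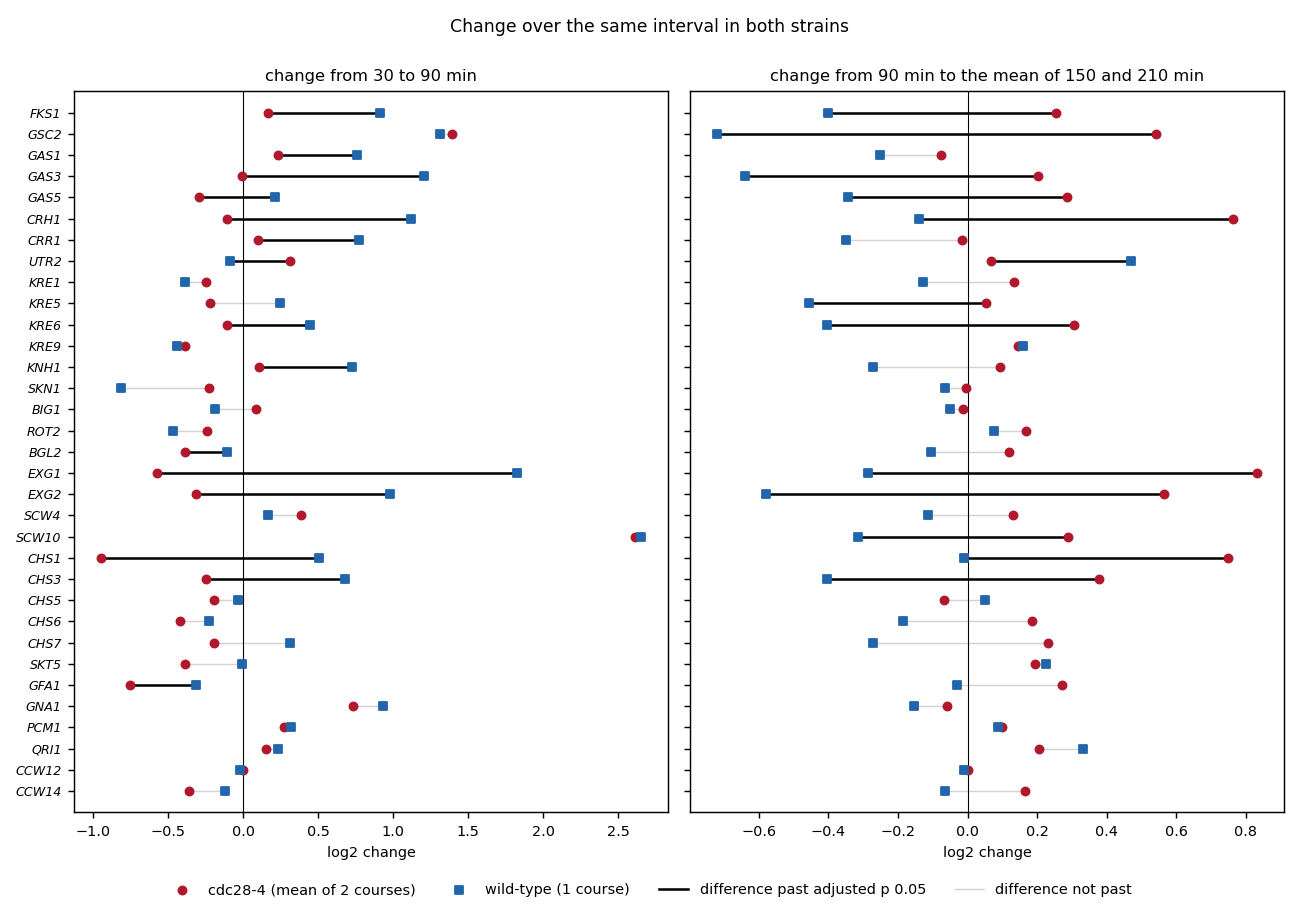
Log2 change of each gene over the same interval in cdc28-4 (circles, mean of 2 courses) and in wild type (squares, 1 course); a black line joins values whose difference passed an adjusted p of 0.05. On the left, wild-type squares lie right of the circles for most joined genes, with EXG1 at -0.58 in cdc28-4 and 1.83 in wild type; on the right the order is the other way round, except for UTR2. The wild-type points of CRR1 use values under background (30 and 210 min).

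**Figure D4:**
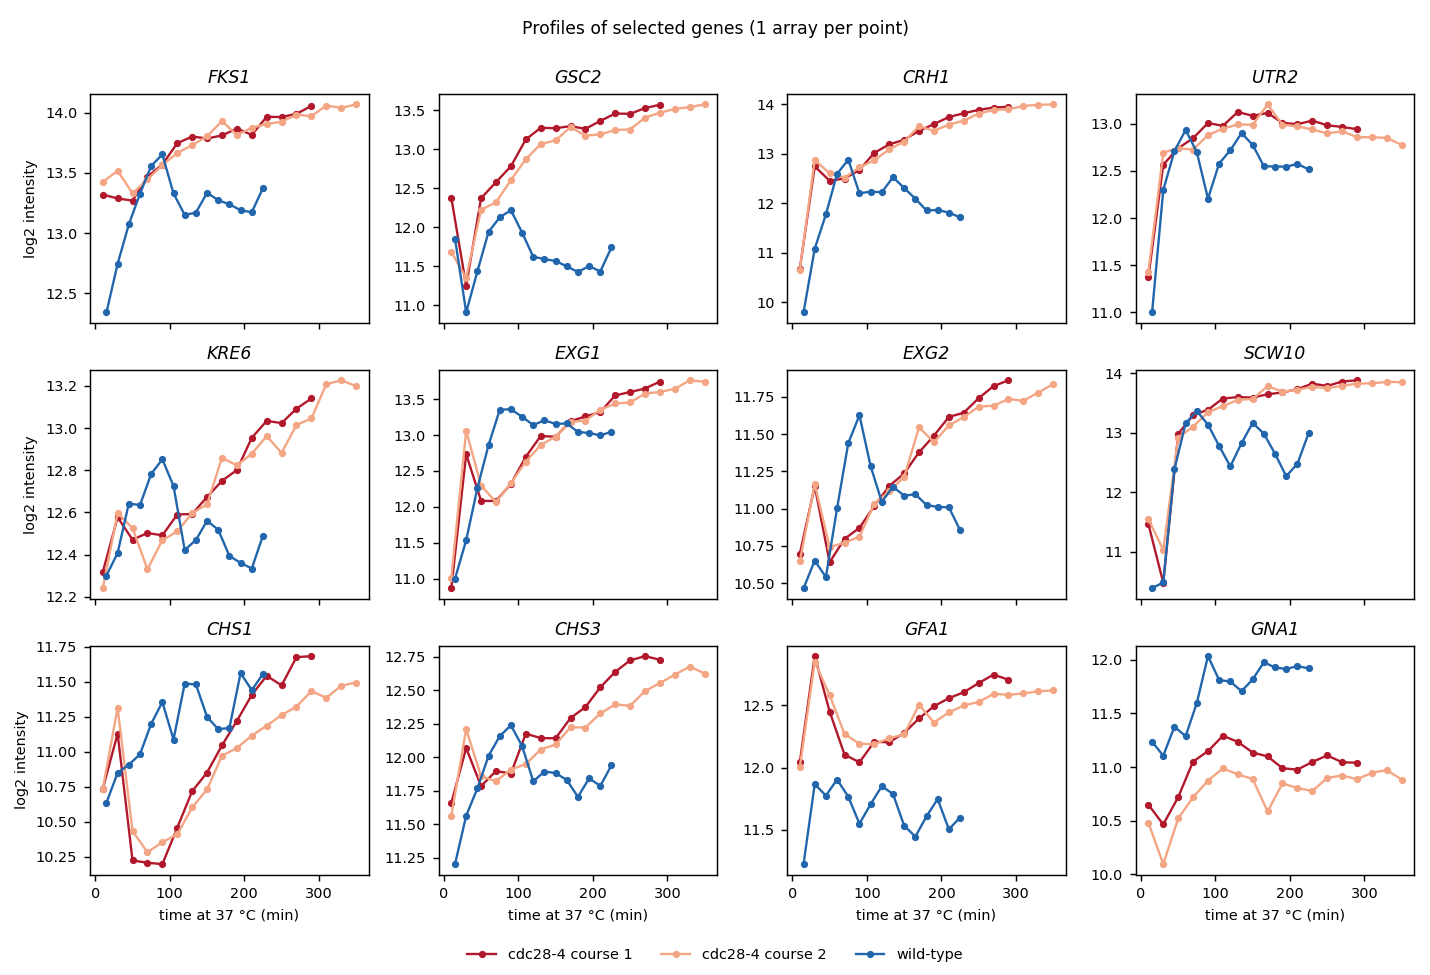
Log2 intensity of 12 genes over time at 37 °C, 1 point per array, in both cdc28-4 courses and the wild-type course. The cdc28-4 courses run close together and end high in most panels, and GNA1 lies higher in wild type while GFA1 lies higher in cdc28-4. SCW10 shows wild-type highs at 75 and 150 min and goes up again to the last array at 225 min.

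Levels averaged over the 4 shared times were compared as 1 mean per course, 2 cdc28-4 values against 1 wild-type value, with 1 residual degree of freedom. The spread between wild-type cultures was not measured and is assumed to be that of the cdc28-4 courses, so the adjusted p-values hold only under that assumption. Of the 33 genes 13 were higher, 8 lower and 12 not past, where 65.3% of all genes were called (30.7% higher, 34.7% lower), so the share called is close to that of all genes. CRH1 averaged 13.11 in cdc28-4 and 11.85 in wild type, a difference of 1.26 (SE 0.0753, adjusted p = 6.88e-05), and GSC2 12.61 and 11.53, a difference of 1.08 (SE 0.0827, adjusted p = 0.000129). GNA1 averaged 10.80 in cdc28-4 and 11.73 in wild type, a difference of -0.93 (SE 0.117, adjusted p = 0.000664), and GFA1 12.44 and 11.61, a difference of 0.83 (SE 0.0753, adjusted p = 0.000215). The other steps of UDP-N-acetylglucosamine supply were higher in cdc28-4 as GFA1 was, PCM1 by 0.81 and QRI1 by 0.71, so that GNA1 stood alone among the 4 in lying lower. Among the chitin genes CHS6 (0.42) and CHS3 (0.28) were higher and CHS5 (-0.42), SKT5 (-0.35), CHS1 (-0.34) and CHS7 (-0.24) lower. FKS1 was higher by 0.43, UTR2 by 0.43, SCW10 by 0.54, KRE9 by 0.41, KRE5 by 0.46 and ROT2 by 0.53, while GAS3 was lower by 0.81, KNH1 by 0.63 and BGL2 by 0.24. KRE6 (0.12), SKN1 (-0.34), SCW4 (0.04), EXG1 (0.12), EXG2 (0.11) and CRR1, under background in wild type at 30 and 210 min, did not pass. With arrays centred on their median BGL2 (-0.19, adjusted p = 0.0689) and CHS7 (-0.19, 0.0774) did not pass and KRE1 did (0.22, 0.0406). With the spread taken between paired arrays KRE1, KRE6, BIG1, EXG2 and CCW14 passed as well, with adjusted p from 0.000535 to 0.0283.

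A rhythm was tested with a cosine and a sine over a quadratic trend, at the period that best described the 44 reference cell cycle genes. In wild type from 45 min on that period was 80 min, and 1 of the 33 genes passed, where 1.28% of all genes did. An unadjusted p under 0.05 was found for 10 of the 33 and for 934 of all 5449 genes. The 1 gene that passed was SCW10, with an amplitude of 0.44 (SE 0.0442, adjusted p = 0.00516). It had wild-type highs of 13.36 at 75 min and 13.16 at 150 min, with lows of 12.43 at 120 min and 12.27 at 195 min. It then went up to 12.99 at 225 min, the last array, so whether that is a peak cannot be seen. The call was lost at a period 10 min shorter (adjusted p = 0.0573) or longer (0.233) and with the first arrays kept (0.232). In cdc28-4 SCW10 stayed between 12.92 and 13.88 from 50 min on, with its highest values late in both courses. For cdc28-4 the best period was 160 min, the upper edge of the grid searched, and described 22.6% of the detrended variance of the reference genes, against 63.6% in wild type, so no period was established. At that value GNA1, GSC2, CHS1 and KRE9 passed, 4 of 33 against 18.7% of all genes, with amplitudes of 0.05 to 0.13. All 4 were lost without course 1 (adjusted p from 0.438 to 0.448) and KRE9 without course 2 (0.0595), and at the wild-type period none of the 33 did (limma, 0 also at an unadjusted p under 0.05).

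Other genes of glucan and chitin metabolism, 29 on a separate list, gave a mixed picture. At 30 against 10 min in cdc28-4, 10 rose and 4 fell, with the chitinase gene CTS1 at -1.68, the daughter cell glucanase gene DSE4 at 0.87 and the TRAPP complex gene TRS65 at 0.84. At 90 and 110 against 10 min 9 were higher and 11 lower, with CTS1 at -2.50 and CSI2 at 2.06. In the late contrast 16 rose and 2 fell, with CTS1 at 1.39, the daughter cell wall gene DSE2 at 1.02 and CSI2 at 0.96. From 30 to 90 min the change was higher in cdc28-4 for 2 and lower for 9, led by DSE4 (-2.48), DSE2 (-2.37) and CTS1 (-2.37), and from 90 min on higher for 8 and lower for 1, led by CSI2 (1.10), BCH2 (0.80) and the septum chitin synthase gene CHS2 (0.73). Of 11 reporters of the pathway that senses wall damage, the cell wall integrity pathway, 9 rose late and 0 fell, with a median of 1.20, while 1 was higher and 7 lower at 90 and 110 against 10 min. As with the 33 genes, these counts are read against the shares of all genes given above, and no test of the lists was made.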

How the data were processed

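The authors deposited a linear intensity for each of 10928 probe sets on every array. They used the affy package, per the submitters' processing notes; how probes were summarised and normalized is not stated there. The log2 of these was analysed. A single S. cerevisiae gene was annotated to 5498 probe sets, and 47 genes with several were represented by their brightest, which left 5449 genes. An array's background level was the 95th percentile over its fission yeast probe sets (intensity 270 to 462).

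Tests used R 4.3.3 and limma 3.58.1, two-sided, with Benjamini-Hochberg adjustment over 5449 genes. A single fit of 48 arrays had a mean per strain and time (15 residual and 4.00 prior degrees of freedom). Levels were fitted on 3 course means and rhythms by an F test, with periods of 50 to 160 min tried in steps of 2. The scripts were tested on simulated data.

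Replicate numbers are the courses, which the design text calls replicate time courses. Same-course deviations at 105 pairs of times had r from 0.01 to 0.90, median 0.47, with 97 over 0.1. Members and lists were chosen with earlier results of these data known. Per-array values are given for the 4 largest differences past the threshold in a comparison, for fixed pairs of relatives and for GFA1, and up to 3 other glucan or chitin genes are named per comparison. Promoter and protein sequences were not used here.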

Additional observations from a re-analysis of the deposited data

Results flagged for a closer look

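Each result here is a change over time that differed between cdc28-4 and wild type in the test of the difference itself, given as the log2 change in cdc28-4 minus that in wild type. From 30 to 90 min it was -2.40 for EXG1, -1.45 for CHS1, -1.29 for EXG2, -1.23 for CRH1 and -1.21 for GAS3. It was -0.92 for CHS3, -0.75 for FKS1, -0.62 for KNH1, -0.55 for KRE6, -0.53 for GAS1 and -0.50 for GAS5. The smallest were -0.44 for GFA1, -0.29 for BGL2 and 0.41 for UTR2. From 90 min to 150 and 210 min it was 1.26 for GSC2, 1.14 for EXG2, 1.12 for EXG1 and 0.90 for CRH1. It was 0.84 for GAS3, 0.78 for CHS3, 0.76 for CHS1, 0.71 for KRE6, 0.65 for FKS1, 0.63 for GAS5, 0.60 for SCW10, 0.51 for KRE5 and -0.40 for UTR2. All of them rest on the single wild-type array at 90 min, which deviated from its neighbours in time with an SD of 0.193 over the 33 genes and 0.176 over all genes. Those from 30 to 90 min also rest on the single wild-type array at 30 min, with 0.273 and 0.234. The cdc28-4 arrays at 30 min had 0.538 (course 1) and 0.471 (course 2) over the 33 genes. With wild type averaged over 75, 90 and 105 min, UTR2 alone of these lost its call, in both intervals. That averaging left the 30 min arrays as they were. Within a group of 1 or 2 arrays no outlier test was possible.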

How the results depend on the processing

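Alternatives were quantile normalization, median centring, a filter on dim genes, the mean of probe sets, a prior spread that follows the mean level, a replicate block, single arrays left out, other periods and, added after seeing the data, 3 more. Of 3300 results of the 33 genes under an alternative, 3122 kept direction and side of the threshold, 88 fell short, 90 passed newly and 0 reversed. Apart from the calls named with their values above, the replicate block changed no other call. For the change from 90 min on, the replicate block called 1541 of all genes in place of 899, and with median centring too 21 of the 33 genes and 1554 of all genes; single arrays left out gave 542 to 814 of all genes and 10 to 13 of the 33. Single arrays left out gave 18 to 19 of the 33 at 30 against 10 min, 17 to 24 at 90 and 110 against 10 min, 21 to 22 late and 12 to 15 from 30 to 90 min. The rhythm in wild type was called in 0 of the 33 and 4 of all genes with the first arrays kept, 0 and 34 at a period 10 min shorter, and 0 and 18 at 10 min longer (limma). At an unadjusted p under 0.05 these settings gave 6, 16 and 5 of the 33, and 616, 990 and 632 of all genes. The rhythm in cdc28-4 was called in 7 of the 33 and 1121 of all genes with median centring, and in 1 and 40 with the first arrays kept. It was called in 2 and 520 at a period 10 min shorter, and in 8 and 1490 at 10 min longer. Without the 170 min arrays it was called in 10 and 1712, and at the wild-type period in 0 and 0 (limma). Unadjusted, the wild-type period gave 0 of the 33 and 110 of all genes. Leaving out 1 course gave 0 to 5 of the 33 and, over all genes, 0 to 1381 (without course 1, 3 of the 33 and 582 of all genes unadjusted). The cause was not tested. Wild-type arrays have no replicate, so none could be left out. CRR1 and KNH1 lie near background, which limits their folds.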
